A study of Mus musculus with 4 samples.

Results

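The genes described here are 10 components of the Notch pathway: the receptor genes Notch1, Notch2, Notch3 and Notch4, the ligand genes Jag1 and Dll1, the nuclear genes Rbpj and Maml1, and the target genes Hes1 and Dtx1. They were taken by gene symbol from a table of 20207 genes, and all 10 were found. The cells were LSK cells, blood progenitors sorted as negative for lineage markers and positive for Sca-1 and Kit, from fetal livers of wild-type or Brpf1-null mouse embryos at E14.5. Each of the 2 samples per genotype pooled about 10000 cells from 4 embryos, and oligo-dT-primed libraries were made from their RNA. How Brpf1 was inactivated, and in which strain, is not given in the sources used here. Brpf1 encodes a chromatin reader that assembles histone acetyltransferase complexes.

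Notch receptors are cut by ADAM proteases and then by gamma-secretase when a JAG or DLL ligand on a neighbouring cell binds them. The freed intracellular domain enters the nucleus, joins the DNA-binding protein RBPJ and a Mastermind-like (MAML) coactivator, and switches on genes such as Hes1. In blood the pathway is known for the emergence of stem cells from embryonic endothelium and for commitment of progenitors to the T-cell fate.

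The labels describe 2 pairs of samples, but the tables of the pairs held the same values in every row: 0 of the 20207 wild-type and 0 of the 20207 Brpf1-null values differed. Whether these values come from 1 of the pairs or merge both is not known. Each genotype was therefore treated as 1 library (n = 1), no difference has a replicate check, and no p-value was computed. Levels are in RPKM, reads scaled to transcript length and library size. Coverage along the transcripts was not checked, so comparisons between genes of unlike length are approximate. The steps between low values gave library sizes of about 23631826 reads for wild-type and 22211149 reads for Brpf1-null. The range after a level or a fold is a 95% counting interval. It covers counting error only, not the spread between embryos, and PCR copies are not independent reads. Brpf1 stood at 2.59 RPKM in wild-type and 2.15 RPKM in Brpf1-null cells; these are whole-gene values, which do not show whether a part was deleted. The genes of the sort were present: Kit was at 25.6 and 21.3 RPKM and Ly6a, which encodes Sca-1, at 10.6 and 9.51 RPKM. Where 2 values stand together, wild-type comes first.

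Changes are given as log2 of the Brpf1-null over the wild-type value after 1 RPKM was added to each, so positive values are higher in Brpf1-null cells. Calls at 1.5-fold use this scale, while folds given with a counting interval are ratios of the levels as deposited. Of the 10 Notch genes, 5 averaged at least 1 RPKM and are called measured (Notch1, Notch2, Rbpj, Maml1 and Hes1), and the other 5 were under that level in both libraries. Hes1 was above 1 RPKM in the wild-type library alone. Of these 5 measured genes, 0 were higher by 1.5-fold or more in Brpf1-null cells and 1, Hes1, was lower by that much. Over all 9380 measured genes, 14.1% were higher and 9.42% lower by 1.5-fold or more. The median change of the 5 measured Notch genes was 0.09, beside 0.04 for all measured genes. Dividing each library by its median shifted the median of all genes from 0.04 to −0.06 and that of the 5 Notch genes to −0.02. It also moved the share of higher genes among all those past 1.5-fold from 59.9% (1323 higher, 884 lower) to 45.1% (988 higher, 1201 lower). The counting interval of the fold excluded 1 for 3 of the 5 measured genes, above 1 for Notch1 and Maml1 and below 1 for Hes1. At this depth it lay above 1 for 40.0% and below 1 for 32.4% of 9258 measured genes with a read estimate, so an interval that excludes 1 is common.

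**Figure D1:**
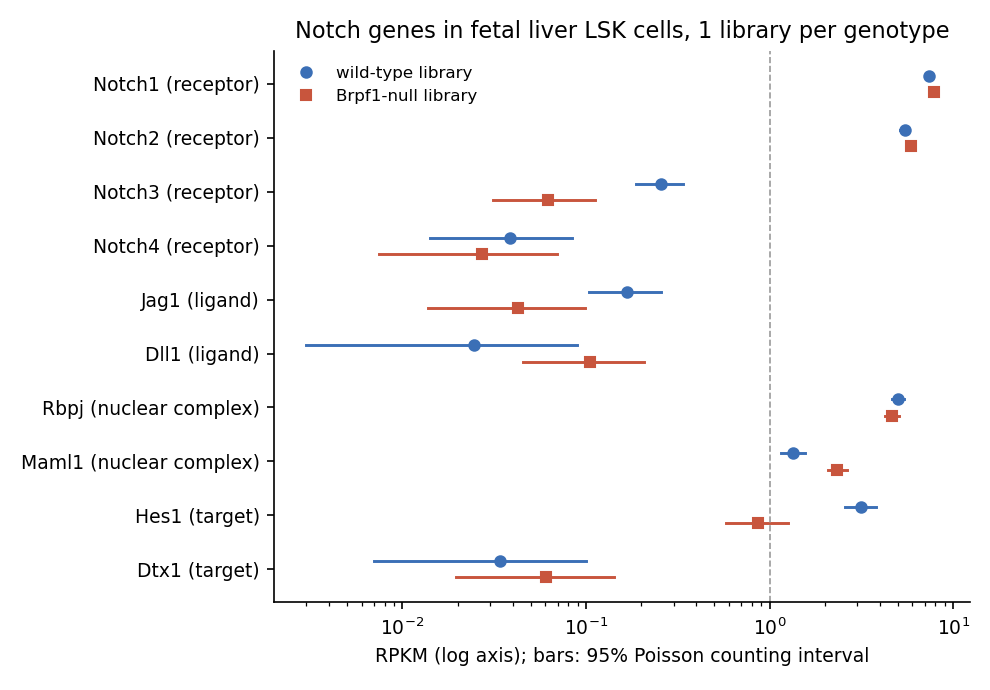
RPKM of the 10 Notch genes on a log axis in the wild-type (circles) and the Brpf1-null library (squares), with 95% Poisson counting intervals as bars; the dashed line marks 1 RPKM. Notch1, Notch2 and Rbpj sit close together in both libraries, Hes1 lies at 3.15 and 0.868 RPKM, and the other 5 genes left of the line rest on few reads.

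Among the receptors, Notch1 and Notch2 carried nearly all of the message, and their ratio as deposited differed between the libraries by less than counting error. Notch1, the receptor that drives T-cell commitment, was at 7.36 RPKM (7.01 to 7.72) in wild-type cells and at 7.90 RPKM (7.52 to 8.29) in Brpf1-null cells, from about 1650 and 1665 reads. It lay above 78.2% and 78.0% of all genes. Its level was 1.07-fold higher (1.002 to 1.15) in Brpf1-null cells. Its log2 change of 0.09 turned to −0.02 after median centring and to −0.10 once the trend of change on transcript GC content had been subtracted. Notch2, the receptor known for marginal zone B cells, was at 5.44 RPKM (5.15 to 5.74) in wild-type and 5.86 RPKM (5.56 to 6.18) in Brpf1-null cells, 1.08-fold higher (0.999 to 1.16). The sign of its small change also flipped, from 0.09 to −0.02 after centring and to −0.01 without the GC trend. The direction of both receptor changes thus depended on the scaling.

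A ratio within a library does not move when each library is scaled by 1 factor, though subtracting the GC trend does move it. Notch1 stood at 1.353 times the level of Notch2 in wild-type and at 1.347 times in Brpf1-null cells, so the ratio differed by a factor of 0.996 (0.899 to 1.10). Notch1 made up 56.2% and 57.0%, and Notch2 41.5% and 42.3%, of the summed receptor RPKM of 13.1 and 13.9.

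Notch3 and Notch4 were low, and Notch4 rested on few reads in both libraries. Notch3, a receptor best known from pericytes and smooth muscle and itself switched on by Notch in T-cell precursors, was at 0.256 RPKM (0.188 to 0.339) in wild-type and 0.0623 RPKM (0.0311 to 0.111) in Brpf1-null cells. Those levels rest on 48 and 11 reads, a 4.10-fold lower value (2.10 to 8.76). Relative to Notch1 it was 4.40-fold lower (2.24 to 9.43), and it supplied 1.95% and 0.450% of the receptor sum. Notch4, an endothelial receptor, was at 0.0384 RPKM in wild-type and 0.0273 RPKM in Brpf1-null cells, from 6 and 4 reads, and its fold could lie anywhere from 6.79-fold lower to 2.99-fold higher. A difference in Notch4 was not detectable at this depth. In the same libraries 12 stromal and pericyte marker genes summed to 4.70 and 3.25 RPKM. The highest were Postn (2.295 and 1.807 RPKM), Pdgfrb (0.938 and 0.773 RPKM) and Lum (0.693 and 0.325 RPKM). Of the 12, 4, including Rgs5 and Des, were listed at 0 in both. The 13 endothelial genes summed to 153 and 119 RPKM, most of it from Egfl7 (113.3 and 88.3 RPKM). Of 6 measured endothelial genes 1 was higher (Tie1) and 2 were lower (Emcn and Esam) by 1.5-fold or more. Over all measured genes the shares were 14.1% and 9.42%. The other 7 endothelial genes averaged under 1 RPKM, among them Cdh5 (0.583 and 0.203 RPKM), Stab2 (0.483 and 0.149 RPKM) and Kdr (0.132 and 0.330 RPKM). Whether the endothelial sum came from endothelial cells or from the sorted progenitors themselves was not tested. The part of either cell type in the Notch3 difference was not tested. In RNA from pooled cells, fewer cells of a type and less RNA per cell cannot be told apart.

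The ligand genes were low in the sorted cells. The 5 JAG and DLL ligand genes together reached 0.730 RPKM in wild-type and 0.430 RPKM in Brpf1-null cells, against 13.1 and 13.9 RPKM for the receptors. Jag1, the ligand gene whose loss disturbs bile duct formation, was at 0.168 RPKM (0.104 to 0.256) in wild-type and 0.0425 RPKM (0.0138 to 0.0991) in Brpf1-null cells. With 21 and 5 reads it was 3.95-fold lower (1.45 to 13.4). Dll1, a ligand of the Delta class, went the other way on very few reads: 0.0247 RPKM from 2 reads in wild-type and 0.105 RPKM from 8 reads in Brpf1-null cells. Its fold of 4.26 higher had an interval from 0.849 to 41.1 that includes 1. All of these levels are under 1 RPKM, where 1 added RPKM shrinks the log2 change to −0.16 for Jag1 and 0.11 for Dll1.

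Jag2 and Dll4 also differed in opposite directions. Jag2, the second Jagged ligand, was at 0.501 RPKM in wild-type and 0.0999 RPKM in Brpf1-null cells, from 48 and 9 reads, 5.01-fold lower (2.43 to 11.6). Dll4, the main endothelial and thymic ligand, was at 0.0368 and 0.183 RPKM from 3 and 14 reads, a ratio of 4.97 (1.39 to 26.9). Dll3 was listed at 0 in both libraries. Jag2 held 68.6% of the ligand sum in wild-type and 23.2% in Brpf1-null cells, and Jag1 held 22.97% and 9.88%. Jag1 and Jag2 stood in a ratio of 0.335 and 0.425, a factor of 1.27 whose interval (0.296 to 4.84) includes 1. Of the atypical ligands without a receptor-activating domain, Dlk1, a gene of fetal hepatoblasts and stroma, was at 5.33 and 1.98 RPKM, 2.69-fold lower (2.05 to 3.54). Dlk2 was listed at 0 in wild-type and at 0.235 RPKM in Brpf1-null cells. Beside these, 12 of 12 hepatocyte marker genes were lower by 1.5-fold or more, against 9.42% of all measured genes. Their sums were 2080 and 544 RPKM. The 7 bile duct markers summed to 2.98 and 2.36 RPKM. Krt7, the highest, was at 1.37 RPKM in both, and Krt19 was listed at 0 in both. The part of these cells in the ligand values was not tested.

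**Figure D2:**
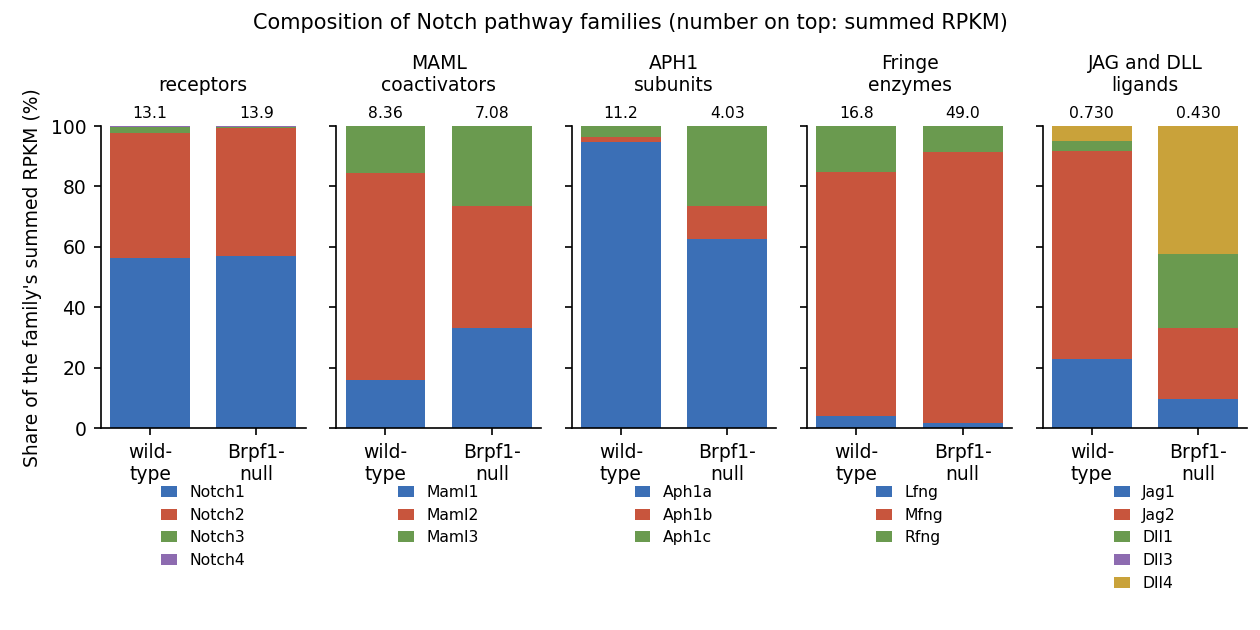
Share of each gene in the summed RPKM of its family, in percent, for the wild-type (left bar) and the Brpf1-null library (right bar), with the sum in RPKM on top. The Notch1 and Notch2 shares are close between libraries, Jag2 has the leading ligand share in wild-type cells, the intervals of Jag2, Dll1 and Dll4 overlap in Brpf1-null cells (ligand sums of 0.730 and 0.430 RPKM), and Maml2 holds 68.3% and 40.3% of the coactivator sum.

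Of the nuclear complex, Rbpj differed by less than counting error and Maml1 was higher in Brpf1-null cells. Rbpj, the DNA-binding hub of the pathway, was at 5.02 RPKM (4.64 to 5.42) in wild-type and 4.65 RPKM (4.27 to 5.05) in Brpf1-null cells, from about 646 and 562 reads. Its fold of 1.08 lower (0.963 to 1.21) includes 1, and its log2 change of −0.09 became 0.07 after removal of the GC trend. Rbpj has processed pseudogenes in the mouse genome, so its reads could have been shared with them.

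RBPJ binds DNA through the core TGGGAA, which is why the promoters were searched for it on both strands. RefSeq promoter windows (GRCm38.p6, 250 bases before to 50 after a start) were found for 9 of the 10 genes, as 11 windows; Hes1 had no entry. The core was present in 2 of the 11, both of Rbpj, and in 25.6% of all 32851 windows of that length. The 30 bases around its matches upstream of the first Rbpj start site, on the plus strand, are shown with the core, or its reverse complement, in capitals.
Rbpj, chr5:53590185-53590214, core 149 bases upstream: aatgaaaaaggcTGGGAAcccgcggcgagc
Rbpj, chr5:53590269-53590298, core on the other strand 65 bases upstream: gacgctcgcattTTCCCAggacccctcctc
A match describes the letters and is not a measured binding site. The downstream match also lies in the second Rbpj window, 205 bases before that start site.

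Maml1, the first of the Mastermind-like coactivators that bridge RBPJ and Notch to histone acetyltransferases, was at 1.34 RPKM (1.15 to 1.55) in wild-type and 2.34 RPKM (2.08 to 2.63) in Brpf1-null cells. From about 175 and 288 reads its level was 1.75-fold higher (1.45 to 2.13). On the log2 scale with 1 RPKM added its change was 0.51, short of 1.5-fold. With 0.1 RPKM added it was 0.76 and past 1.5-fold. A change of at least 0.51 was seen in 17.3% of all measured genes and in 16.6% of 3004 genes within 2-fold of its mean level. Maml1 lies in a GC-rich class of transcripts (55.7% GC) whose median change was 0.19, and its change without the GC trend was 0.34.

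The coactivator family differed in composition between the libraries. Maml2, the most abundant member in wild-type cells, was at 5.71 and 2.85 RPKM, 2.001-fold lower (1.73 to 2.32), and Maml3 was at 1.31 and 1.88 RPKM. The sum of the 3 genes was 8.36 RPKM in wild-type and 7.08 RPKM in Brpf1-null cells. Maml1 held 16.04% and 33.1% of it. Its ratio to Maml2 was 0.235 and 0.821, 3.50-fold higher (2.74 to 4.47), while its ratio to Maml3 differed by a factor of 1.21 (0.943 to 1.57). Of the other coactivator genes, Snw1 (SKIP) was at 91.3 and 64.6 RPKM and the acetyltransferase gene Crebbp at 3.998 and 2.59 RPKM. The Crebbp level was 1.54-fold lower (1.396 to 1.71), short of 1.5-fold once 1 RPKM was added (−0.48 on the log2 scale). Of 4 measured coactivator genes outside the 10, 0 were higher and 1, Maml2, lower by 1.5-fold, beside 14.1% and 9.42% of all measured genes. The median change of the 4 was −0.49. Rbpjl was listed at 0 in both libraries.

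Hes1, a basic helix-loop-helix repressor and the classical Notch target, had the largest change of the 5 measured genes. It was at 3.15 RPKM (2.58 to 3.80) in wild-type and 0.868 RPKM (0.577 to 1.255) in Brpf1-null cells, from about 109 and 28 reads. The intervals of the libraries do not overlap, and the level was 3.62-fold lower (2.40 to 5.76) in Brpf1-null cells. Its log2 change of −1.15 was reached by 240 of 9380 measured genes (2.56%) and by 2.51% of 3224 genes within 2-fold of its mean level. It stayed past 1.5-fold under each scaling tried, from −1.23 after centring to −1.16 without the GC trend, and was −0.47 when 5 RPKM was added. Hes1 was 3.36-fold lower (2.18 to 5.41) relative to Rbpj and 3.89-fold lower (2.56 to 6.22) relative to Notch1, ratios that do not move when each library is scaled by 1 factor.

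Dtx1, a ubiquitin ligase gene used as a Notch readout in lymphocytes, was close to undetected, at 0.0341 RPKM from 3 reads in wild-type and 0.0606 RPKM from 5 reads in Brpf1-null cells. Its fold interval, from 0.345 to 11.4, allows a difference in either direction. Of the other HES and HEY genes, Hes6, which is not a typical Notch target, was the one measured gene, at 14.4 and 12.6 RPKM. Relative to Hes6, Hes1 was 3.15-fold lower (2.03 to 5.12). Hes5 was at 0.232 and 0.106 RPKM from 7 and 3 reads, and Heyl at 0.0933 and 0.0993 RPKM from 10 reads each. Hey1 was at 0.0959 RPKM in wild-type and listed at 0 in Brpf1-null cells, and Hes2, Hes3, Hes7 and Hey2 were listed at 0 in both. Nrarp, a feedback inhibitor and direct target, was at 0.213 and 0.157 RPKM from 13 and 9 reads, a difference not detectable at this depth (fold lower 1.36, 0.537 to 3.60).

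Markers of other cells differed between the same libraries. Counts of them past 1.5-fold stand beside 14.1% higher and 9.42% lower over all measured genes. Besides the hepatocyte genes, 10 of 10 erythroid genes were lower by that much, with sums of 650 and 101 RPKM, and 7 of 7 measured B-cell genes were lower, with sums of 269 and 83.4 RPKM, Pax5 being listed at 0 in both. Of 8 measured macrophage genes 2 were higher, Csf1r (8.31 and 28.8 RPKM) and Cd68 (26.9 and 41.8 RPKM). Another 3, Vcam1, Timd4 and C1qa, were lower. Emr1 (3.36 and 2.54 RPKM), C1qb (24.1 and 16.2 RPKM) and C1qc (4.97 and 3.46 RPKM) were lower by less than 1.5-fold. Their fold intervals lay below 1, as did those of Mrc1 and Marco, which averaged under 1 RPKM. The list summed to 77.1 and 95.2 RPKM, and Csf1r and Cd68 alone of it were higher. The T-cell specification genes summed to 27.2 and 28.1 RPKM, with Cd3e listed at 0 in both. Of 5 measured, 1 was higher (Cd7, 4.67 and 7.54 RPKM) and 1 lower (Gata3). The part of any of these cell types in the Hes1 value was not tested.

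**Figure D3:**
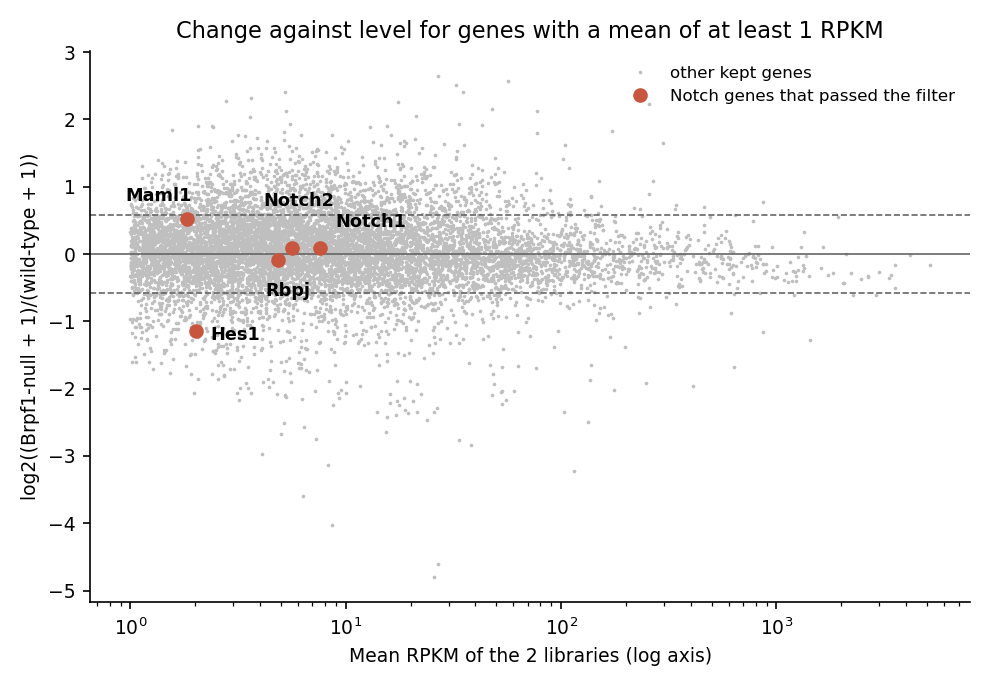
Log2 change against the mean RPKM (log axis) for the 9380 measured genes (grey), with the 5 measured Notch genes in red and dashed lines at 1.5-fold. Hes1, at −1.15, lies below the lower line, Maml1, at 0.51, just under the upper one, and Notch1, Notch2 and Rbpj within 0.1 of 0.

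In the wild-type library the order of the levels ran from Notch1 through Notch2, Rbpj, Hes1, Maml1, Notch3, Jag1, Notch4 and Dtx1 to Dll1. The neighbours whose counting intervals overlapped were Notch2 and Rbpj, Notch3 and Jag1, Notch4 and Dtx1, and Dtx1 and Dll1. In the Brpf1-null library Maml1 stood above Hes1, and Rbpj was separated from Notch2. The counting intervals of the 5 genes below Hes1 all overlapped each other, so the order of those 5 is uncertain.

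The rest of the pathway was described with 81 further genes, of which 49 were measured. Of these, 6 were higher and 6 lower by 1.5-fold or more, and their median change was 0.04, the same as that of all measured genes to 2 decimals. The balance moved with the scaling, to 4 higher and 9 lower after median centring and 5 higher and 8 lower after quantile normalization. The shares, 6 of 49 in each direction, stand beside 14.1% and 9.42% over all measured genes. The counts by role that follow stand beside the same shares.

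With 1 RPKM added, receptor maturation and cleavage genes mostly lay within 1.5-fold, apart from Aph1a, Adam17 and Mfng. Of 8 measured cleavage genes, 1 was higher and 1 lower by 1.5-fold, beside 14.1% and 9.42% over all measured genes. Aph1a, a scaffold subunit of gamma-secretase, was at 10.6 RPKM in wild-type and 2.52 RPKM in Brpf1-null cells, from about 558 and 125 reads, 4.19-fold lower (3.45 to 5.14). The subunit genes Ncstn, at 26.4 and 20.4 RPKM, and Psenen, at 158 and 137 RPKM, lay within 1.5-fold. Relative to Psenen, Aph1a was 3.65-fold lower (2.97 to 4.502). Its paralogs Aph1b, at 0.195 and 0.434 RPKM, and Aph1c, at 0.399 and 1.07 RPKM, were higher in Brpf1-null cells, but they are near-identical copies whose reads may have been split, and their values are uncertain. The sheddase gene Adam17 was 1.66-fold higher (1.47 to 1.88). It was not past 1.5-fold after centring or after quantile normalization (0.51 on the log2 scale in each). Adam10, the protease of ligand-activated Notch, was at 16.8 and 11.9 RPKM, and Furin, which cuts the receptor on its way to the surface, at 2.23 and 3.77 RPKM. The Furin level was 1.69-fold higher (1.42 to 2.01), short of 1.5-fold once 1 RPKM was added (0.56 on the log2 scale).

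Of 4 measured glycosylation genes, 1 was higher and 0 lower by 1.5-fold. Mfng, a Fringe glycosyltransferase that tunes receptors towards Delta ligands, was at 13.5 RPKM in wild-type and 43.9 RPKM in Brpf1-null cells, from about 596 and 1820 reads. It was 3.25-fold higher (2.96 to 3.57), the largest upward change of the 54 measured genes of the pathway, and 1.98-fold higher (1.54 to 2.53) relative to Rfng. Rfng was at 2.57 and 4.23 RPKM and Lfng at 0.666 and 0.847 RPKM. The Rfng level was 1.64-fold higher (1.31 to 2.06), short of 1.5-fold once 1 RPKM was added (0.55 on the log2 scale). The fucosyltransferase gene Pofut1 (2.31 and 2.45 RPKM) and the glucosyltransferase gene Ktelc1, now Poglut1 (11.6 and 12.03 RPKM), lay within 1.5-fold.

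Of 7 measured genes that control receptor turnover, 1 was higher, 1 lower and 5 within 1.5-fold, beside 14.1% higher and 9.42% lower over all measured genes. Fbxw7, which marks the cleaved receptor for destruction, was at 1.66 and 4.12 RPKM, 2.48-fold higher (2.06 to 3.004). Itch, a ubiquitin ligase acting on the receptor at the membrane, was at 4.62 and 2.50 RPKM, 1.85-fold lower (1.61 to 2.14), and was within 1.5-fold without the GC trend, at −0.48. Dtx2, a relative of Dtx1, was at 3.42 and 1.98 RPKM, and Numb, an inhibitor of the receptor, at 1.21 and 1.83 RPKM. The Dtx2 level was 1.72-fold lower (1.36 to 2.17), short of 1.5-fold once 1 RPKM was added (−0.57 on the log2 scale). The Numb level was 1.51-fold higher, with a counting interval above 1, and also fell short on that scale (0.36).

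Of 15 measured corepressor genes, 1 was higher, 0 were lower and 14 lay within 1.5-fold. Aes, a short Groucho-family protein gene, was at 25.2 and 51.1 RPKM, 2.03-fold higher (1.87 to 2.21). Next in size were Cir1 (11.9 and 8.003 RPKM), Ctbp2 (10.7 and 14.53 RPKM) and the Groucho gene Tle1 (0.842 and 1.35 RPKM). The Tle1 level was 1.60-fold higher (1.19 to 2.20), short of 1.5-fold once 1 RPKM was added (0.35 on the log2 scale). Spen, which recruits the repressor complex to RBPJ, was at 1.56 and 1.74 RPKM.

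**Figure D4:**
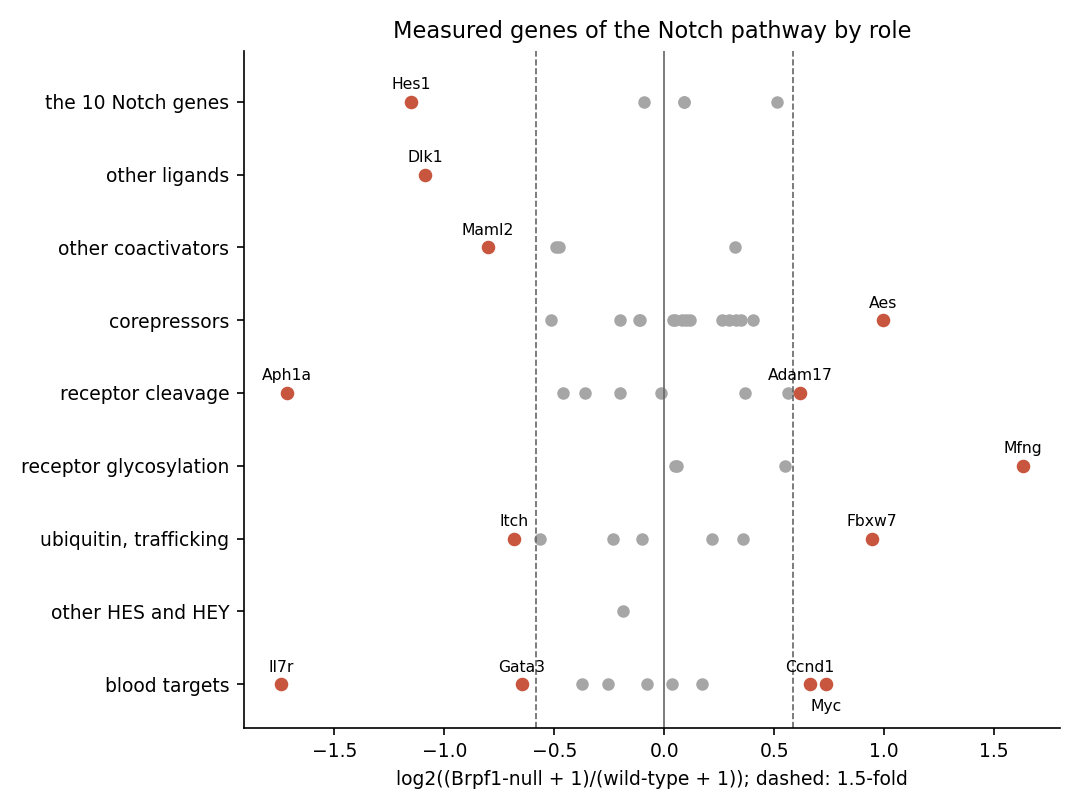
Log2 change of the measured Notch pathway genes by role, 1 point per gene, with genes past 1.5-fold in red and dashed lines at 1.5-fold. Of the 13 red points, Aph1a (−1.72) and Il7r (−1.74) lie farthest to the left and Mfng (1.63) farthest to the right.

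Of 9 measured genes described as Notch targets in lymphoid and blood cells, 2 were higher and 2 lower by 1.5-fold. Over all measured genes the shares were 14.1% and 9.42%. Il7r, the interleukin-7 receptor gene of lymphoid progenitors, was at 8.53 and 1.85 RPKM, 4.61-fold lower (3.87 to 5.57), beside the lower B-cell markers. Gata3, a T-cell and progenitor factor, was at 3.20 and 1.68 RPKM, 1.90-fold lower (1.52 to 2.39). Myc was at 55.4 and 92.8 RPKM, 1.68-fold higher (1.60 to 1.76), and was within 1.5-fold without the GC trend, at 0.57. Ccnd1, which encodes cyclin D1, was at 11.1 and 18.1 RPKM, 1.63-fold higher (1.51 to 1.77), and was within 1.5-fold after centring, at 0.54. Tcf7, an early T-lineage factor, was at 2.93 and 3.42 RPKM and Ptcra, the pre-T-cell receptor chain gene, at 3.29 and 3.39 RPKM, with fold intervals that include 1. The interval of Runx1, at 4.35 and 4.08 RPKM, also included 1. Cdkn1a was at 3.56 and 2.52 RPKM, 1.41-fold lower (1.06 to 1.91). Gata2 was at 5.96 and 4.83 RPKM, 1.23-fold lower (1.07 to 1.42).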

How the data were processed

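RNA of sorted LSK cells was sequenced in 2 samples per genotype and aligned with TopHat to mm9, per the submitters' processing notes. Which annotation and counting program were used is not given here. Per the file headers, the table deposited for pair 1 is in RPKM and that for pair 2 in FPKM. The values were equal, so 1 library per genotype was used. The deposited fold changes, which divide wild-type by Brpf1-null as a ratio, were checked for direction (12624 of 12624 matched within 0.1%). Neither the fold changes nor their deposited log2 were used further.

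Library sizes were recovered from genes of a single GENCODE M21 transcript length (GRCm38, used for lengths and GC only; 98.1% of symbols matched), and tested on simulated data. With them, 64.8% of 1220 low wild-type and 68.7% of 1224 low Brpf1-null values lay within 0.1 of a whole read, against 24.4% and 27.8% with sizes 5% higher. Reads of other genes are approximate. Fold intervals are exact Clopper-Pearson, ratio intervals exact conditional (scipy 1.17.1). The design called for description only when both tables hold the same values. Alternatives were other pseudocounts, filters, scalings, a GC trend and a 2-fold threshold.

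The 10 genes and the lists were chosen with earlier results of these data known. Text names the 10 genes, every ligand and HES or HEY gene, and from each other list the genes past 1.5-fold and up to 4 with the largest change. Ratios, family shares and the other genes were chosen after their values were seen. Of the listed genes, Kdm1a, Neurl1b and Igll1 had no matching symbol.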

Additional observations from a re-analysis of the deposited data

How the results depend on the processing

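The 2 deposited tables hold the same values, so no replicate could be left out. No paired analysis was possible because the tables of both pairs give 1 value per genotype. The 5 measured Notch genes gave 0 higher and 1 lower by 1.5-fold, and the other 49 pathway genes 6 and 6. With a pseudocount of 0.1 RPKM, 1 Notch gene, Maml1, was higher. With 5 RPKM, 0 Notch genes were lower, and 3 pathway genes were higher and 2 lower, since adding more shrinks the change of low genes; over all genes 554 were higher and 393 lower, against 1323 and 884. A filter at a mean of 5 RPKM kept 2 Notch and 26 pathway genes, and 0 Notch genes were lower, while 5 pathway genes were higher and 2 lower (of all 5546 genes, 793 or 14.3% higher and 483 or 8.71% lower). At a 2-fold threshold 1 pathway gene was higher and 3 were lower (all genes 388 and 325), and Hes1 was still the 1 Notch gene below it. Of the 13 pathway genes past 1.5-fold, 11 stayed past it after median centring, 12 after quantile normalization, 11 without the GC trend, 13 with a pseudocount of 0.1 and 5 with 5 RPKM. Other genes passed it under these settings: the pathway genes outside the 10 gave 4 higher and 9 lower after centring, 5 and 8 after quantile normalization, 5 and 6 without the GC trend, and 9 and 8 with a pseudocount of 0.1. No called gene changed sign under these settings. Depth limits Notch3, Notch4, Jag1, Dll1 and Dtx1, which rest on 2 to 48 reads per library.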

Other observations

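Some pathway genes under a mean of 1 RPKM also differed beyond counting error. Neurl1a, a ubiquitin ligase that promotes ligand uptake, was at 0.253 RPKM in wild-type and 1.14 RPKM in Brpf1-null cells, from about 23 and 98 reads, 4.498-fold higher (2.86 to 7.48). Numbl, a relative of Numb, was at 0.0773 and 0.329 RPKM from about 5 and 20 reads, 4.26-fold higher (1.55 to 14.51). Cbl, a ubiquitin ligase gene, was at 0.956 and 0.593 RPKM, 1.61-fold lower (1.31 to 1.98). Mib1 and Mib2, which activate ligands in the sending cell, were at 0.635 and 0.427 RPKM and at 0.741 and 0.927 RPKM, with fold intervals that include 1. Genes that subdivide LSK cells went both ways. Slamf1, which encodes CD150, was at 0.566 RPKM in wild-type and 0.0335 RPKM in Brpf1-null cells, from 36 and 2 reads, a ratio of 16.9 (4.36 to 145). Cd34 was at 116.8 and 179.3 RPKM, 1.54-fold higher (1.49 to 1.58), Flt3 at 22.9 and 33.1 RPKM, 1.45-fold higher (1.37 to 1.54), and Cd48 at 99.4 and 74.7 RPKM, 1.33-fold lower (1.252 to 1.416). These genes were chosen after their values were seen.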
